A study of Drosophila melanogaster with 48 samples.

Results

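The genes described here are the cuticle protein genes of Drosophila melanogaster whose symbols begin with Twdl, Lcp, Ccp84, Edg and a number, or Acp65, together with Pcp. The rule found 39 of the 11982 genes named on the array: 24 Tweedle genes, 6 Lcp65A genes, 3 Ccp84A genes, 3 Edg genes, and Acp65Aa, Lcp9 and Pcp. The rule uses symbols and no measured value, but it was chosen with earlier results of these data known. For a gene with several probe sets the one with the highest average signal across the 48 arrays was read. The RefSeq annotation of the assembly Release 6 plus ISO1 MT lists 52 protein-coding genes under the same rule, and 13 of them had no probe set of their own here. A further 2 probe sets each carry 2 family symbols, so they are given without a gene name.

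Larval wing discs and developing wings were measured in 12 groups of 4 arrays. The labels do not say that these came from separate crosses, so p-values measure the spread between these samples. The Ubx line was of genotype w, with 1 copy each of UAS-UbxIa, nabGal4NP3537 and Tub-Gal80ts. The control line carried UAS-eGFP in place of UAS-UbxIa, so that the w background, the Gal4 driver and the temperature-sensitive repressor Gal80ts were common to all groups. Tissue came from late larvae that had left the food, aged by the colour of the gut, from prepupae and from pupae. The 19 °C groups were kept at that temperature throughout, with Gal80ts active, and their prepupae and pupae were taken 12.5 and 33.5 h after puparium formation. The 29 °C groups were moved there for 16 h before dissection, and their prepupae and pupae were taken 6 and 16 h after puparium formation. Per the labels, about 15 to 20 animals were pooled per sample and 2 µg of total RNA was labelled. The driver is active only where nab is active, so each sample mixed cells with and without the transgene. No probe set names Ubx, and the transgene itself was not checked.

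Insect cuticle is a composite of chitin fibres and secreted proteins, and a new cuticle is laid down before each moult under the control of ecdysone pulses. Many structural proteins of the Lcp65A, Acp65A, Ccp84A and Edg84A kind carry the Rebers-Riddiford chitin-binding motif, although their symbols do not begin with Cpr, whereas Tweedle proteins form a separate family named for a mutation that makes the body short and stout. Edg stands for ecdysone-dependent gene: these genes were found in imaginal discs through their induction when ecdysone is first given and then withdrawn, as happens in the prepupa, when the nuclear receptor ftz-f1 appears. The prepupal wing secretes the thin cuticle of the pupa, and the pupal wing later secretes that of the adult. Ubx is the Hox gene that makes the hind flight appendage a haltere and not a wing.

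The array values were those deposited, on a log2 scale, so a difference of 1 is a 2-fold change in signal. Array medians ran from 4.19 to 4.78, and replicate arrays correlated across probe sets at 0.995 or more. The arrays fall into 6 sets of 8, each of 1 stage and 1 temperature. Value distributions lay at most 0.134 apart inside a set and at least 0.243 apart between sets. Comparisons of Ubx with eGFP stay inside a set, but those of stages or temperatures cross sets, where array set and condition cannot be told apart. Differences were tested with limma over 18769 probe sets, and a gene was called at a Benjamini-Hochberg adjusted p under 0.05. The precision is limited by the 4 arrays per group. Of 8 listed wing genes 7 were measured, and all 7 were more than 0.5 over the highest array median in every group.

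As a guide to which members gave a signal, a group mean was set against the highest array median of that group plus 0.5, a margin chosen after the values were seen. Of the 39 members, 22 passed it in at least 1 group and 17 in none. The 17 comprise 13 Tweedle genes (TwdlB, TwdlD, TwdlF, TwdlG, TwdlL, TwdlN, TwdlP, TwdlQ, TwdlR, TwdlS, TwdlX, TwdlZ and Twdlalpha) with Ccp84Ag, Lcp65Ae, Lcp65Af and Lcp9. The members Ccp84Ac, Ccp84Ae, Edg91, Lcp65Aa, TwdlE, TwdlH and TwdlK passed it in every group. Lcp65Ac, Lcp65Ag3, TwdlV, TwdlW and TwdlY passed it in prepupae only. No detection calls were available, so a value below the margin was not read as absence of the RNA.

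The first question was how these genes behave over wing development in the control line, before Ubx is considered. The large changes centred on the prepupa. Into prepupae, 10 members rose at least 2-fold at 19 °C and 17 did so at 29 °C, beside 5.09% and 6.63% of all probe sets. Into pupae, 13 members fell at least 2-fold at 19 °C and 17 at 29 °C, beside 9.31% and 7.85% of all probe sets. By adjusted p alone, 31 members were called from larva to prepupa at 19 °C (18 higher, 13 lower, 75.7% of all probe sets called) and 33 at 29 °C (32 higher, 1 lower, 72.3%). All 38 members called from prepupa to pupa at 19 °C (88.1%) and all 39 at 29 °C (85.2%) were lower. Markers of other tissues moved between stages too, and their part in these changes was not tested. Into prepupae, the mean of 4 myoblast and muscle markers went from 6.48 to 6.66 per array down to 4.43 to 4.54 at 19 °C and from 6.36 to 6.57 down to 4.70 to 4.75 at 29 °C, and that of 6 tracheal markers from 8.95 to 9.19 down to 7.35 to 7.45 and from 8.55 to 8.66 down to 7.89 to 7.99. These means hide markers that went the other way. Of the 4 muscle markers, 3 were called lower and 1 higher at each temperature. Of the 6 tracheal markers, 5 were called lower at 19 °C and 4 at 29 °C, and 1 was called higher at each. All 8 haemocyte markers were called into prepupae at both temperatures, 5 higher and 3 lower. Into pupae, all 3 fat body markers rose at least 2-fold at both temperatures, with medians of 2.89 and 3.49. In bulk tissue, fewer cells of a type and less RNA per cell cannot be told apart.

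The whole arrays shifted between sets as well. The median of all probe sets moved by -0.26 from larva to prepupa at 19 °C and by 0.01 at 29 °C, against 0.03 and 0.61 for the members. From prepupa to pupa it moved by -0.32 and -0.26, against -0.69 and -0.92 for the members. The small changes therefore depend on scaling. After quantile normalisation over all arrays the rise into prepupae split 21 higher and 8 lower at 19 °C and 26 and 4 at 29 °C, and with arrays centred on their medians the 29 °C split was 23 and 7. The fall into pupae at 19 °C then numbered 22 lower and 2 higher, or 23 and 2 with centred arrays.

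**Figure D1:**
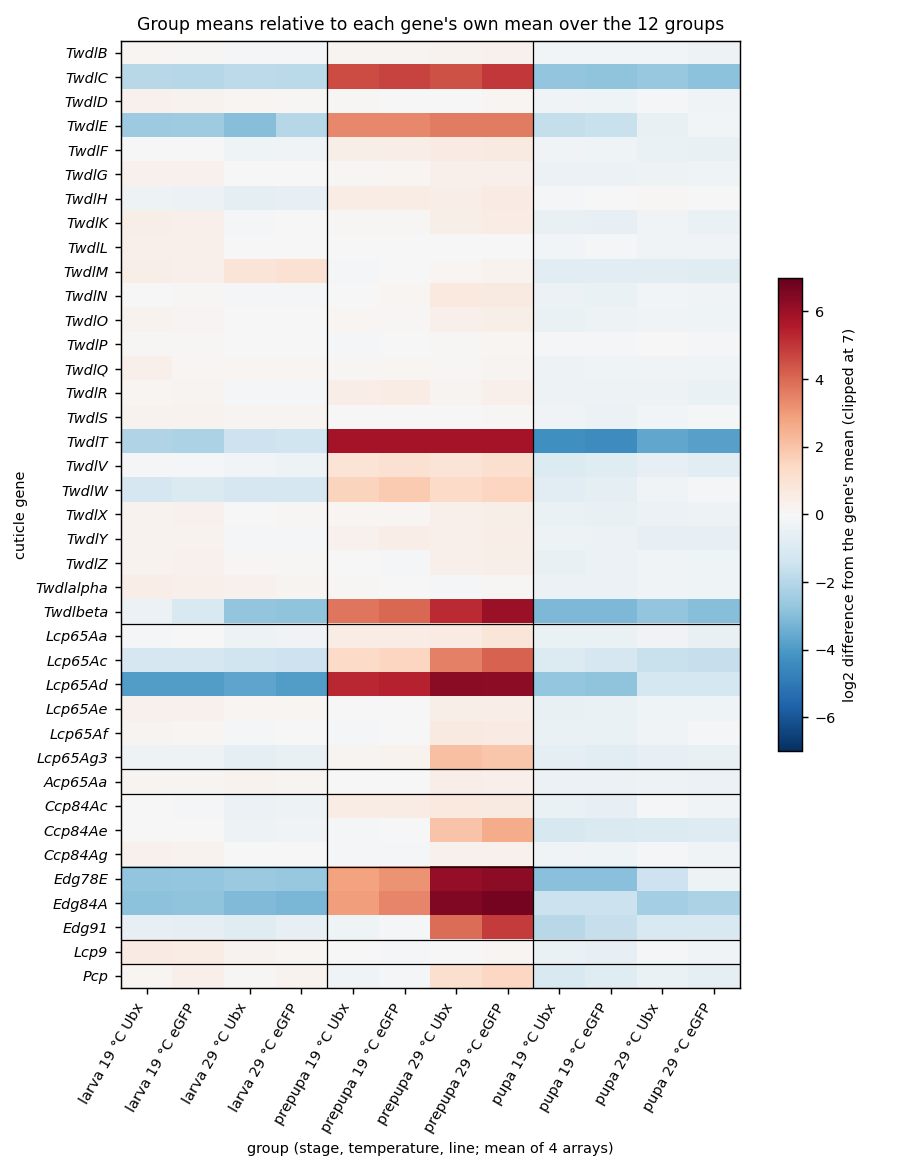
Group means of the 39 cuticle genes (rows, ordered by family) in the 12 groups (columns, 4 arrays each), as log2 difference from the gene's own mean over the groups. A few rows are deep red in the 4 prepupal columns, among them TwdlT, TwdlC, TwdlE, Twdlbeta, Lcp65Ad, Edg78E and Edg84A, while most Tweedle rows stay near 0, and Edg91 and Ccp84Ae are red in prepupae at 29 °C only.

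A set of 8 members rose at least 4-fold into prepupae and fell at least 4-fold after them at both temperatures: TwdlC, TwdlE, TwdlT, Twdlbeta, Lcp65Ac, Lcp65Ad, Edg78E and Edg84A. The share of all probe sets that met this limit was not counted, so the number only describes the members. Ccp84Ae, Edg91 and Lcp65Ag3 met this limit at 29 °C alone and TwdlW at 19 °C alone, where a side of a limit is not a test of a difference between temperatures. TwdlW rose by 2.84 at 19 °C and 2.69 at 29 °C, and then fell by 2.51 and 1.61.

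Among the Tweedle genes, which encode secreted structural proteins of the cuticle, TwdlT swung widely between stages. In eGFP prepupae it read 14.32, 14.28, 14.34 and 14.33 at 19 °C and 14.38, 14.32, 14.32 and 14.32 at 29 °C, against 5.93 to 6.67 and 6.85 to 7.30 in larvae. These prepupal readings lie close to 14.6, the highest value of the whole table. From larva to prepupa TwdlT rose by 8.02 (SE 0.13, adjusted p = 2.16e-40) at 19 °C and by 7.25 at 29 °C, and in pupae it was back at 4.03 to 4.15 and 4.48 to 5.02, below its larval range.

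TwdlC read 12.42, 12.13, 12.58 and 12.51 in eGFP prepupae at 19 °C and 12.79, 12.52, 12.71 and 12.51 at 29 °C. Its larval values of 5.55 to 5.91 and its pupal values of 4.57 to 5.07, over both temperatures, lay far below. The rise was 6.75 (SE 0.09, adjusted p = 9.22e-44) at 19 °C and 6.83 at 29 °C. TwdlE kept a clear signal at every stage. It read 13.57, 13.52, 13.62 and 13.57 in prepupae at 19 °C and 13.88, 13.81, 13.86 and 13.83 at 29 °C, with 7.32 to 8.20 and 8.09 to 8.38 in larvae. Its pupal values were 8.38 to 8.94 and 9.98 to 10.19, and the pupal value at 29 °C exceeded that at 19 °C by 1.41 (SE 0.14, adjusted p = 1.98e-11).

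Twdlbeta read 11.25, 10.78, 11.30 and 11.07 in eGFP prepupae at 19 °C, and 13.19, 13.11, 13.13 and 13.10 at 29 °C, so the temperatures did not overlap. Its larval values were 6.39, 6.39, 5.30 and 5.99 at 19 °C and 4.26, 4.50, 4.13 and 4.25 at 29 °C, again apart but in the opposite order. The rise into prepupae was 5.08 (SE 0.14, adjusted p = 3.41e-31) at 19 °C and 8.85 at 29 °C, and pupal values were 3.71 to 4.37 at both temperatures.

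In the RefSeq annotation, 12 of the family genes from TwdlM to TwdlD form a run on chromosome arm 3R in which neighbours lie within 20 kb, and 11 of them are members here. None of the 11 is among the 8 genes of the strong prepupal rise. TwdlH, the member of the run that rose at both temperatures by the largest amount, gained 0.89 (SE 0.05, adjusted p = 1.28e-19) at 19 °C and 1.18 at 29 °C. TwdlM went the other way: it fell by 0.36 at 19 °C and by 0.84 at 29 °C into prepupae, and was the single member called lower at 29 °C. By this spacing TwdlC, TwdlE, TwdlT, Twdlbeta, TwdlW and TwdlQ each lie alone, and TwdlQ changed by -0.02 at 19 °C and 0.06 at 29 °C with no call. The 4 neighbours TwdlX, TwdlY, TwdlZ and Twdlalpha on the X chromosome changed by at most 0.54 into prepupae at 29 °C. TwdlV, in a run of 4 family genes with TwdlF and TwdlG on 3R, rose by 1.20 (SE 0.08, adjusted p = 7.63e-18) and 1.47.

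The Lcp65A run on 3L holds 12 family genes, of which 7, Acp65Aa included, are members here. Lcp65Ad, annotated as a larval cuticle protein, stood at 13.59, 13.35, 13.58 and 13.39 in eGFP prepupae at 19 °C and at 14.30, 14.39, 14.37 and 14.35 at 29 °C. Its larval values were 4.06 to 4.27 over both temperatures, and the gain was 9.30 (SE 0.10, adjusted p = 4.35e-47) at 19 °C and 10.21 at 29 °C. Its prepupal values at 29 °C lie near 14.6, the top of the table, as do those of TwdlT and Edg84A, and whether the scale limits the size of these rises was not tested. Its neighbour Lcp65Ac read 6.94, 6.29, 6.90 and 6.37 at 19 °C and 8.77, 9.42, 9.35 and 9.42 at 29 °C, from larval values of 3.64 to 4.07, a rise of 2.70 (SE 0.12, adjusted p = 1.68e-24) and 5.57. The other 5 members of the run moved less, by -0.37 to 0.61 at 19 °C and by 0.17 to 2.49 at 29 °C, with Lcp65Ag3 highest and Acp65Aa lowest at 29 °C. The probe set read for Lcp65Aa averaged 6.97 in eGFP larvae and 8.07 in eGFP prepupae at 29 °C. The other probe set of Lcp65Aa changed by 0.008 there with no call, and by 0.62 at 19 °C with a call. The arrays do not separate Lcp65A copies that share a probe set, and any shared hybridisation among these similar genes was not tested.

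Edg84A and Edg78E, of the ecdysone-dependent genes, rose strongly at both temperatures. Edg84A, in a run of 8 family genes with the Ccp84A cluster on 3R, read 10.99, 10.53, 11.18 and 10.56 in eGFP prepupae at 19 °C and 13.93, 14.18, 14.18 and 14.14 at 29 °C, from 4.14 to 4.75 in larvae. Edg78E read 9.93, 9.06, 9.77 and 9.39 at 19 °C and 12.58, 12.70, 12.77 and 12.66 at 29 °C, from 3.55 to 3.80 in larvae. Edg84A rose by 6.23 (SE 0.12, adjusted p = 4.52e-37) and 9.90, and Edg78E by 5.86 (SE 0.11, adjusted p = 1.11e-37) and 8.94.

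Edg91 behaved differently at 19 °C. There its eGFP prepupal values of 6.85, 6.22, 6.86 and 6.19 overlapped the larval 6.15, 6.27, 5.90 and 5.67, and the rise was 0.53 (SE 0.18, adjusted p = 0.008). At 29 °C the prepupal values were 11.13, 11.89, 11.62 and 11.61, a rise of 5.46 (SE 0.18, adjusted p = 1.79e-28) from larvae. Ccp84Ae, of the same run as Edg84A, had a like contrast: a difference of 0.03 at 19 °C that was not called, and a rise of 2.82 (SE 0.12, adjusted p = 4.08e-24) at 29 °C to 8.004, 8.72, 9.06 and 8.75. Pcp, a pupal cuticle protein gene, fell by 0.46 into prepupae at 19 °C and rose by 1.24 at 29 °C.

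**Figure D2:**
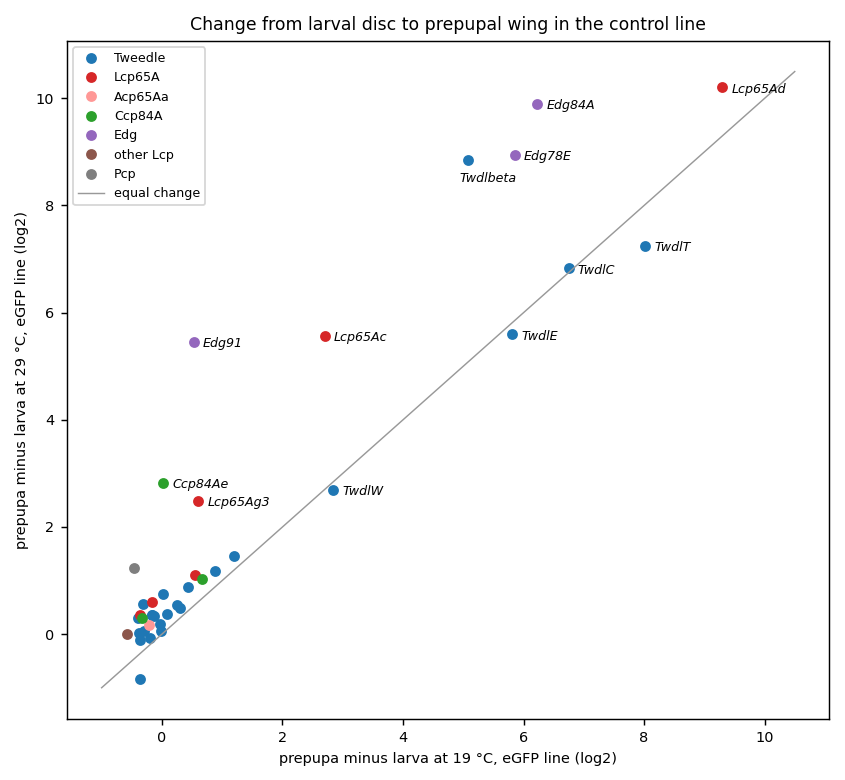
Change from larva to prepupa in the eGFP line at 19 °C (x axis) and 29 °C (y axis), in log2 units, one point per gene, coloured by family; the grey line marks equal change. TwdlC, TwdlE and TwdlW lie near the line, Edg84A, Edg78E, Twdlbeta and Lcp65Ac lie well above it, and Edg91 and Ccp84Ae sit at 0.53 and 0.03 on the x axis.

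The prepupal groups differed in temperature, in hours after puparium formation and in array set, so none of these can be told apart in a direct comparison. Between eGFP prepupae at 29 °C and 19 °C, 26 members were called (24 higher, 2 lower) beside 55.7% of all probe sets, and 8 were at least 2-fold higher beside 3.83%. The members' median was 0.28 and that of all probe sets 0.09, and the split became 18 higher and 5 lower after quantile normalisation over all arrays. The 8 were Edg91, higher by 5.03 (SE 0.18, adjusted p = 6.88e-26), Edg84A by 3.29, Edg78E by 3.14, Lcp65Ac by 2.61, Ccp84Ae by 2.56, Twdlbeta by 2.03, Lcp65Ag3 by 1.72 and Pcp by 1.59. TwdlC was higher by 0.22, and TwdlT and TwdlE differed by 0.02 and 0.28 without a call. Lcp65Aa was among the members called higher, with means of 7.75 at 19 °C and 8.07 at 29 °C. Its other probe set was called in the opposite direction, at -0.86. The unnamed probe sets moved in the same comparison: the first read 4.08, 4.06, 4.48 and 3.94 at 19 °C and 10.05, 10.97, 10.84 and 10.65 at 29 °C, and the second differed by 2.37.

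Outside the prepupa the temperatures differed less. In larvae, 21 members were called (3 higher, 18 lower, 63.9% of probe sets called), with a median of -0.19 against -0.21 for all probe sets, and the split turned to 6 higher and 3 lower after quantile normalisation and 5 and 3 with centred arrays. Twdlbeta, lower by 1.73 (SE 0.14, adjusted p = 6.67e-13), was the single member past 2-fold there (0.746% of probe sets). In pupae, 16 were called (13 higher, 3 lower, 51.7%), and the split turned to 8 and 9, or 5 and 10 with centred arrays, with the median of all probe sets at 0.15. The 3 pupal members past 2-fold (1.36% of probe sets) were Edg78E, higher by 2.56 (SE 0.11, adjusted p = 7.27e-22), Lcp65Ad by 1.59 and TwdlE by 1.41. The pupal values of Edg78E were 3.54, 3.31, 3.49 and 3.45 at 19 °C and 5.94, 5.99, 6.11 and 5.98 at 29 °C, with no overlap.

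The second question was which of these genes differ between Ubx and eGFP tissue at each stage while the transgene is on. In larval discs at 29 °C, TwdlE was lower in the Ubx line and was the single member of 39 called, beside 2.77% of all probe sets. TwdlE read 7.07, 7.15, 7.15 and 7.51 in the Ubx line and 8.09, 8.38, 8.36 and 8.17 in the eGFP line, so the groups did not overlap. The difference was -1.03 (SE 0.14, adjusted p = 6.6e-07, limma), a 2.04-fold lower signal. At 19 °C the same gene read 7.85, 7.40, 7.66 and 7.71 against 7.996, 8.20, 7.497 and 7.32, which overlap, with a difference of -0.10 that was not called. The change of the line difference with temperature was -0.93 (SE 0.19, adjusted p = 0.00842), and TwdlE was again the single member called, beside 0.442% of all probe sets. That call was lost when the larval arrays alone were fitted (adjusted p = 0.135). The other 38 members lay between -0.31 and 0.23, and the median was -0.01 for the members and -0.00 for all probe sets.

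In prepupae at 29 °C, 6 members were called and all 6 were lower in the Ubx line, beside 6.21% of all probe sets called lower and 14.2% called in either direction. The members' median was -0.09, that of all probe sets was -0.01, and 33 of 39 members were not called. The 6 were Edg91, Twdlbeta, Ccp84Ae, Lcp65Ac, TwdlC and Lcp65Aa. They were 1 of 3 Edg, 2 of 24 Tweedle, 1 of 3 Ccp84A and 2 of 6 Lcp65A genes. Of the 6, 5 belong to the 11 genes that rise and fall at least 4-fold at this temperature. Those 11 were picked with the same eGFP prepupal arrays that serve as the reference here, so the overlap is not independent and no conclusion is drawn from it.

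Edg91, which encodes a glycine-rich cuticle protein, read 10.46, 10.31, 10.82 and 10.68 in Ubx prepupae and 11.13, 11.89, 11.62 and 11.61 in eGFP prepupae. The groups lay apart, and the difference was -0.996 (SE 0.18, adjusted p = 6.75e-05), or 1.99-fold. At 19 °C the values were 6.51, 6.29, 6.47 and 6.20 against 6.85, 6.22, 6.86 and 6.19, with a difference of -0.16 and no call. The change with temperature was -0.84 (adjusted p = 0.0337), the single member called in that contrast beside 7.69% of probe sets, but leaving out 1 array took the adjusted p past 0.05 for 9 of 16 arrays, up to 0.0948, and fitting the compared arrays alone gave 0.0511. The 9 arrays were eGFP replicates 2 and 4 and Ubx replicates 1 and 3 at 19 °C, and eGFP replicates 2, 3 and 4 and Ubx replicates 1 and 2 at 29 °C.

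Twdlbeta and TwdlC were the Tweedle genes called in prepupae. Twdlbeta read 12.37, 12.30, 12.31 and 12.34 in the Ubx line and 13.19, 13.11, 13.13 and 13.10 in the eGFP line, a difference of -0.80 (SE 0.14, adjusted p = 6.12e-05), or 1.74-fold. TwdlC read 12.14, 12.26, 12.10 and 12.06 against 12.79, 12.52, 12.71 and 12.51, also apart, with a difference of -0.49 (SE 0.09, adjusted p = 3.88e-05). At 19 °C the differences were -0.23 for Twdlbeta and -0.14 for TwdlC, neither of them called.

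Lcp65Ac and Ccp84Ae were lower by similar amounts, but in both the groups overlapped through eGFP replicate 1. Lcp65Ac read 8.80, 8.38, 8.74 and 8.75 in the Ubx line and 8.77, 9.42, 9.35 and 9.42 in the eGFP line, a difference of -0.57 (SE 0.12, adjusted p = 0.00031). Ccp84Ae read 7.99, 7.70, 8.19 and 8.37 against 8.004, 8.72, 9.06 and 8.75, also a difference of -0.57 (SE 0.12, adjusted p = 0.00071). Without eGFP replicate 1, the array that stands apart, 6 members were called. The call of Ccp84Ae was lost when the arrays of prepupae at 29 °C alone were fitted (adjusted p = 0.108).

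Lcp65Aa read 7.81, 7.68, 7.91 and 7.81 in the Ubx line and 7.92, 8.26, 7.99 and 8.12 in the eGFP line, a difference of -0.27 (SE 0.09, adjusted p = 0.0269). Its other probe set differed by 0.03 with no call, and the mean of both probe sets gave -0.12 (adjusted p = 0.293). The call was also lost without Ubx replicate 1, 2 or 4 or eGFP replicate 2 or 4, with adjusted p up to 0.150.

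The remaining genes of the prepupal rise did not pass the test between the lines. The differences were -0.24 for Edg84A, -0.15 for Edg78E, -0.05 for TwdlT, 0.00 for TwdlE, 0.04 for Lcp65Ad and 0.17 for Lcp65Ag3. TwdlT and Lcp65Ad read close to the highest value of the table in both lines, and TwdlE averaged 13.8 in both. The first unnamed probe set was called, at -0.43 (SE 0.13, adjusted p = 0.0192), with overlapping values.

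**Figure D3:**
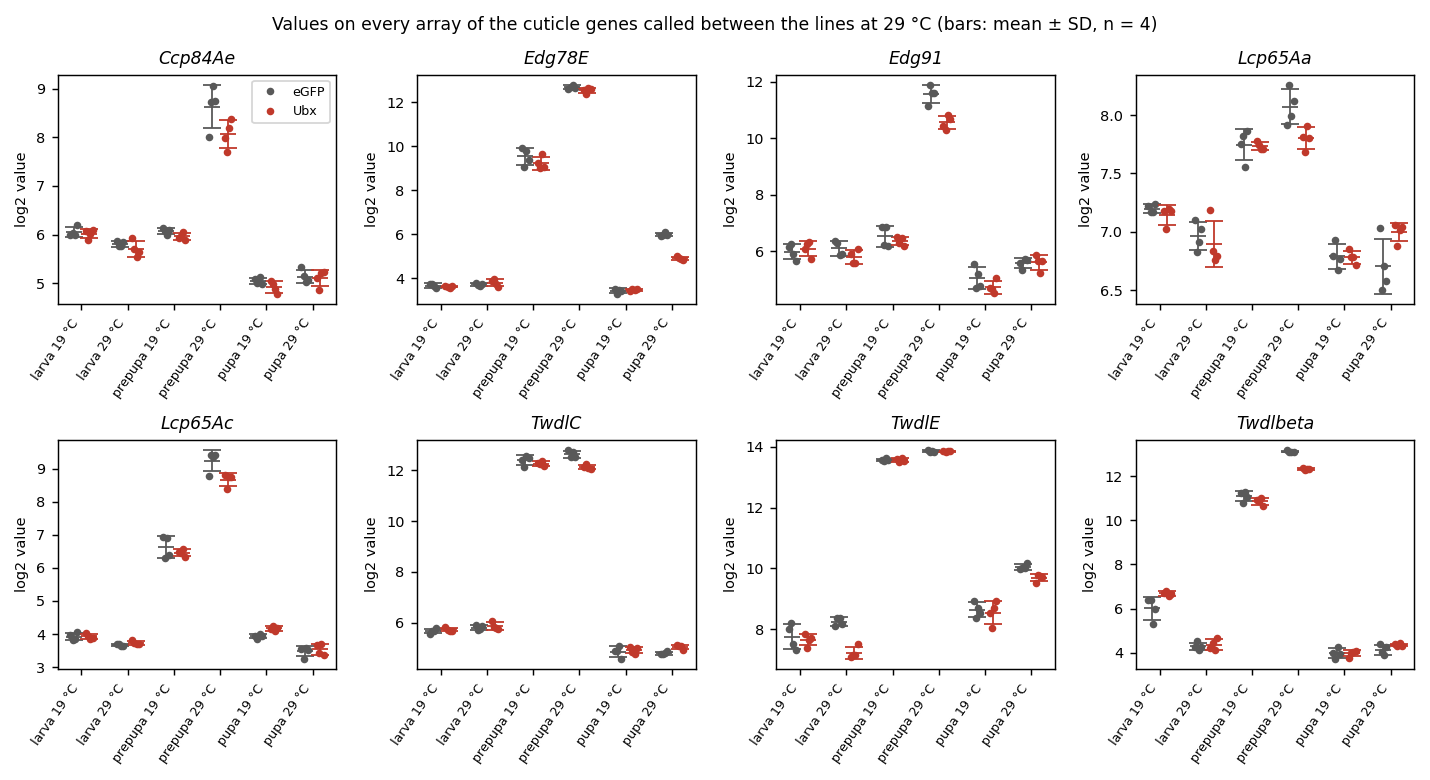
Log2 value on each array of the 8 cuticle genes called between the lines at 29 °C, by stage and temperature (x axis), with eGFP in grey and Ubx in red; bars show the mean and SD of 4 arrays. The Ubx points lie below the eGFP points for TwdlE in larvae at 29 °C, for Edg91, Twdlbeta and TwdlC in prepupae at 29 °C, and for Edg78E in pupae at 29 °C.

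In pupae at 29 °C, 2 members were called, beside 8.89% of all probe sets. Edg78E, which encodes a cuticle protein of the ecdysone-dependent set, read 5.02, 4.92, 4.89 and 4.84 in the Ubx line and 5.94, 5.99, 6.11 and 5.98 in the eGFP line. The groups were far apart, with a difference of -1.09 (SE 0.11, adjusted p = 5.16e-10), a 2.13-fold lower signal. At 19 °C both lines read between 3.31 and 3.54, near the bottom of the scale, where a line difference could hardly show. The change with temperature was -1.12 (SE 0.16, adjusted p = 3.18e-06), the single member called beside 3.36% of probe sets.

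Edg78E in prepupae at 29 °C had read 12.54, 12.35, 12.62 and 12.59 in the Ubx line against 12.58, 12.70, 12.77 and 12.66, so the lines overlapped in prepupae and lay apart in pupae. Lcp65Aa was higher in Ubx pupae by 0.30 (SE 0.09, adjusted p = 0.0212), with 7.06, 6.88, 7.02 and 7.04 against 7.03, 6.502, 6.71 and 6.58, which overlap. Its other probe set differed by -0.02, and its call was lost without Ubx replicate 1 or 4 or eGFP replicate 2 or 4, with the mean of both probe sets, or with the compared arrays alone. TwdlE in pupae at 29 °C read 9.53, 9.80, 9.73 and 9.71 against 9.98, 10.01, 10.00 and 10.19, groups that do not overlap, but its difference of -0.35 (SE 0.14, adjusted p = 0.111) did not pass the test. The members' median was 0.04 and that of all probe sets 0.02.

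The change of the line difference between stages at 29 °C was tested directly. From larva to prepupa, 4 members were called, beside 6.31% of all probe sets. The difference of TwdlE moved by 1.03 (SE 0.19, adjusted p = 0.000266), from -1.03 to 0.00, while those of Twdlbeta, Lcp65Ac and TwdlC moved by -0.87, -0.63 and -0.55. In these prepupae TwdlE averaged 13.8 in both lines, where the highest value of the table was 14.6. Whether the scale limits its line difference there was not tested. From prepupa to pupa, 9 members were called, beside 9.89%. That of Edg78E moved by -0.94 (SE 0.16, adjusted p = 3.91e-05), and 8 moved upward, by 1.03 for Twdlbeta, 1.01 for Edg91, 0.74 for TwdlC, 0.63 for Lcp65Ac, 0.57 for Lcp65Aa, 0.54 for Ccp84Ae, 0.37 for TwdlV and 0.22 for TwdlH. Leaving out 1 array took the adjusted p past 0.05 for 13 of 16 arrays for TwdlH (all but Ubx replicate 3 and eGFP replicate 3 of the prepupae and Ubx replicate 4 of the pupae), with values up to 0.141. For Ccp84Ae it did so for 11 of 16, up to 0.13, all but Ubx replicates 3 and 4 and eGFP replicate 1 of the prepupae and Ubx replicate 2 and eGFP replicate 1 of the pupae. For TwdlV it did so for 5 of 16, up to 0.0782: Ubx replicate 4 and eGFP replicate 1 of the prepupae, and Ubx replicate 2 and eGFP replicates 2 and 3 of the pupae. The Lcp65Aa call was lost with the mean of its probe sets (0.26, adjusted p = 0.0805), and that of Lcp65Ac with the compared arrays alone (adjusted p = 0.0604), as was that of Ccp84Ae (0.232). With centred arrays Ccp84Ae (0.0594), TwdlV (0.0551) and TwdlH (0.149) lost theirs. The TwdlH call was also lost after quantile normalisation (0.0646), with the compared arrays alone (0.123) and with the replicate number as a block (0.0922). Both stage contrasts use the same prepupal arrays. Low signal in the other stage also limits them, since a line difference could hardly show there. In pupae at 29 °C the Ubx and eGFP means were 4.36 and 4.12 for Twdlbeta and 3.53 and 3.48 for Lcp65Ac. In larvae they were 4.36 and 4.28, and 3.73 and 3.67. For these genes the contrasts largely restate the prepupal difference. Pupal means of TwdlC (5.05 and 4.80) and Edg91 (5.61 and 5.59) also lay far below the prepupal ones.

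**Figure D4:**
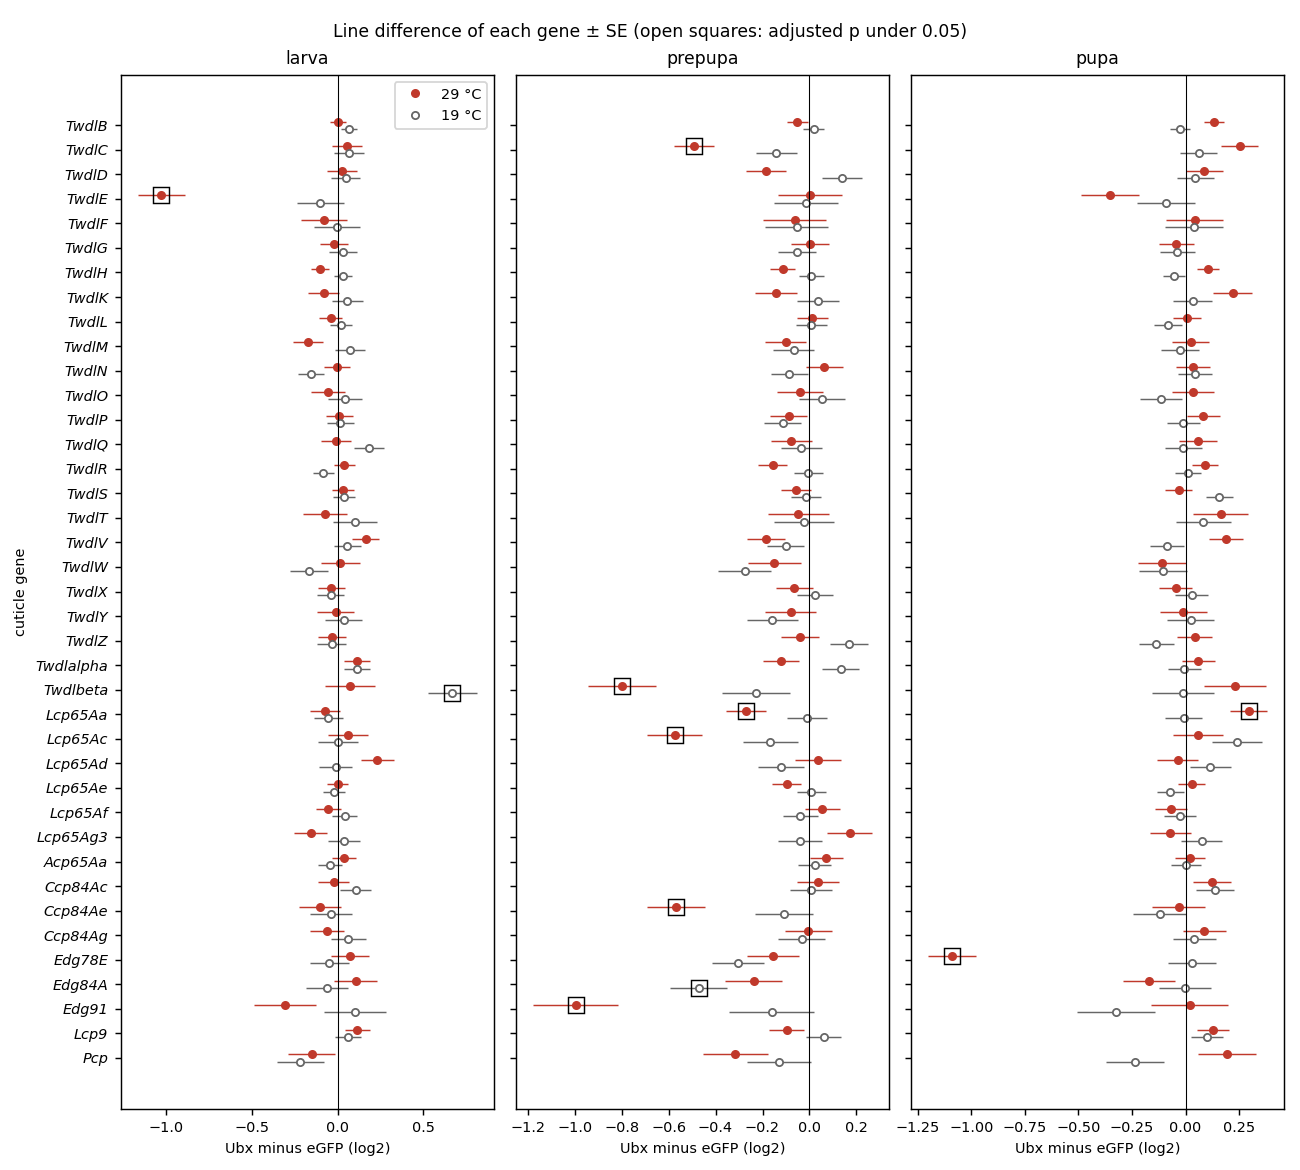
Ubx minus eGFP difference of each of the 39 genes (log2, horizontal bars ± SE) in larvae, prepupae and pupae, at 29 °C (filled red) and 19 °C (open grey); squares mark an adjusted p under 0.05. Most points lie near 0; the squares at 29 °C are TwdlE in larvae, 6 genes left of 0 in prepupae, and Edg78E and Lcp65Aa in pupae.

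With the transgene off at 19 °C the lines still differed in single members. In larvae, Twdlbeta was the 1 member called, beside 1.41% of all probe sets, at 6.71, 6.81, 6.58 and 6.64 in the Ubx line against 6.39, 6.39, 5.30 and 5.99. It was higher by 0.67 (SE 0.14, adjusted p = 0.00433), and by 0.43 without eGFP replicate 3, where the call was lost (adjusted p = 0.0818), as it was with the compared arrays alone (0.245). On that array the mean of the ecdysone genes was 8.86, and at most 8.55 on the other eGFP arrays, and its part in the result was not tested. In prepupae, Edg84A was the 1 member called, beside 3.67%, at 10.79, 9.96, 10.51 and 10.12 against 10.99, 10.53, 11.18 and 10.56, groups that overlap. It was lower by 0.47 (SE 0.12, adjusted p = 0.017), and its call was lost without Ubx replicate 2 or 4 or eGFP replicate 1 or 3 (adjusted p up to 0.155), after quantile normalisation over all arrays (0.0596), or with the compared arrays alone (0.345). In pupae limma called 0 members, beside 1.99% of all probe sets, and 2 had an unadjusted p under 0.05.

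Genes that build chitin and harden the cuticle, from a list of 43 symbols of which 37 were measured, were read in the same comparisons. At 29 °C, 2 of 37 were called in larvae, 7 in prepupae and 15 in pupae, beside 2.77%, 14.2% and 8.89% of all probe sets. With the transgene off at 19 °C, 0, 4 and 2 were called, beside 1.41%, 3.67% and 1.99%. Larvae at 29 °C had 2 called, both higher in the Ubx line: the chitinase gene Cht10 by 0.30 and knk, whose product organises chitin fibres, by 0.16. Prepupae had 7 called, 5 higher and 2 lower, among them the chitinase gene Cht5, higher by 1.15 (SE 0.19, adjusted p = 1.41e-05), the multicopper oxidase gene Mco1 by 0.95, Cht10 by 0.33, and mmy, which makes the precursor of chitin, lower with -0.32. Pupae had 15 called, 8 higher and 7 lower, and the largest differences were -1.29 for e, which acts in cuticle hardening and pigmentation, -1.24 for serp and -0.95 for verm, which encode proteins with chitin deacetylase domains, and -0.88 for obst-C (current symbol Gasp), a chitin-binding protein gene. In the eGFP line 17 of the 37 rose at least 2-fold into prepupae at 19 °C and 21 at 29 °C, beside 5.09% and 6.63% of all probe sets, while 5 fell at each temperature, beside 22.9% and 16.8%. Into pupae 17 and 16 fell at least 2-fold, beside 9.31% and 7.85%, while 5 and 8 rose, beside 9.20% and 8.90%.

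Of 25 listed genes of the ecdysone response, 21 were measured. The shares of all probe sets called at 29 °C were 2.77% in larvae, 14.2% in prepupae and 8.89% in pupae. With the transgene off at 19 °C, 1 of the 21 was called in larvae, at least 2-fold lower in the Ubx line. In prepupae and in pupae at 19 °C 0 were called. The shares of all probe sets called at 19 °C were 1.41%, 3.67% and 1.99%. Called differences in the Ubx line at 29 °C were 2 in larvae (the nuclear receptor gene Hr3, 1.24, and the transcription factor gene Sox14, 0.38), 3 in prepupae (ImpL2, -0.63, Sox14, 0.38, and the ecdysone receptor partner usp, 0.22) and 3 in pupae (br, 0.70, Eip93F, -0.63, and ImpL2, 0.27). The receptor gene ftz-f1, chosen after its values were seen, averaged 4.90 in eGFP larvae and 11.6 in prepupae at 19 °C, and 4.11 and 11.5 at 29 °C, and it differed between the lines by 0.04 in prepupae at 29 °C with no call. Between eGFP prepupae at 29 °C and 19 °C ftz-f1 differed by -0.18 (SE 0.19, adjusted p = 0.459, not called).

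Markers of the wing and of other tissues moved with these comparisons too, and their part in the results was not tested. Each list is short, so a count of 1 marker can lie near the share of all probe sets called. In larvae at 29 °C the mean over 3 measured fat body markers was 5.16 to 6.00 on 3 eGFP arrays, 10.7 on eGFP replicate 3 and 4.89 to 6.03 on the Ubx arrays. Without that replicate the TwdlE difference was -0.99 (adjusted p = 1.01e-05). The mean of the 7 wing markers was 9.11 to 9.15 in the Ubx line and 9.43 to 9.47 in the eGFP line, with 3 of 7 called lower. In the same larvae 1 of 6 tracheal markers was called lower, beside 2.77% of all probe sets called in either direction. The tracheal means were 8.45 to 8.62 against 8.55 to 8.66, but the median difference of the 6 markers was 0.09, with a range of -0.56 to 0.20. Haemocyte markers averaged 6.11 on Ubx replicate 4 and at most 5.18 on the other Ubx arrays, and without that replicate the TwdlE difference was -1.13. In prepupae at 29 °C, where 14.2% of all probe sets were called, 5 of 7 wing markers were lower. Haemocyte markers were higher for 3 of 8 (means of 6.35 to 6.47 against 6.12 to 6.26). Of 4 myoblast and muscle markers 1 was higher (5.01 to 5.21 against 4.70 to 4.75), with a median difference of 0.13 and a range of -0.17 to 1.45. Of 6 tracheal markers 1 was lower (7.66 to 7.82 against 7.89 to 7.99), with a median of -0.02 and a range of -0.92 to 0.08. Limma called 0 of 3 fat body and 0 of 5 neuron and glia markers. In pupae at 29 °C, where 8.89% of all probe sets were called, 6 of 7 wing markers and 1 of 3 fat body markers were lower. The fat body means were 9.22 to 10.1 against 10.6 to 11.4. However, the median difference of the 3 markers was 0.06, with a range of -4.52 to 0.27, so 1 marker lowered the mean. Called as well were 2 of 8 haemocyte markers, higher, and 1 of 6 tracheal markers, lower. Of 4 muscle markers, 1 was higher and 1 lower. With the transgene off at 19 °C, 1 of 3 fat body markers was also lower in Ubx pupae (means of 7.54 to 8.92 against 9.67 to 10.4). The median difference of the 3 markers there was -0.61, with a range of -3.78 to -0.56. At 19 °C, 1 of 8 haemocyte markers was higher in prepupae and 1 of 8 in pupae, beside 3.67% and 1.99% of all probe sets called. Likewise 1 of 4 myoblast and muscle markers was higher in prepupae, while 0 of 7 wing markers were called in either stage. The change with temperature in pupae was called for 0 of 3 fat body, 0 of 8 haemocyte and 5 of 7 wing markers, beside 3.36% of all probe sets.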

How the data were processed

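The authors deposited log2 values per probe set made with RMA (background correction, quantile normalisation and probe summary), as recorded per the submitters' processing notes. Its version is not given in the sources used here, and log2 was inferred from values between 2.37 and 14.6. All 48 columns were matched to a labelled sample. Of 18952 probe sets, 183 controls were left out. Gene names came from the supplied probe annotation, and 4720 probe sets had no symbol and 402 had several. A mean per group was fitted to all 48 arrays with limma 3.58.1 (lmFit, eBayes; R 4.3.3), with 36 residual and 5.16 prior degrees of freedom, with Benjamini-Hochberg adjustment of the two-sided p over 18769 probe sets. On simulated data with 200 changed probe sets in the 29 °C line comparisons, 94 to 97 percent of 1.5-fold and 98 to 100 percent of 2-fold changes were recovered, with 3.02 to 4.90 percent of calls false. The simulated noise was independent between probe sets and had the same spread in every group. In the real prepupal arrays the rising cuticle genes tended to share high and low arrays, so these rates need not hold for the members.

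Every member is accounted for; those called between the lines at 29 °C or with the 10 largest stage changes are described by array, as are up to 4 called genes per stage of the chitin and ecdysone lists. The members, lists and rule were chosen with earlier results of these data known. Alternatives were other scalings, a filter at the median mean, averaging the probe sets of a gene, the compared arrays alone, a replicate block and leaving out each array. Member sequences were not analysed here. Tables used pandas 2.3.3 and numpy 2.4.6, and figures matplotlib 3.10.9, under Python 3.11.15.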

Additional observations from a re-analysis of the deposited data

Results flagged for a closer look

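Among 132 groups of 4 arrays tested over the members described by array, 8 held an array far from the other 3, and chance gives about 1 in 20. In prepupae at 29 °C, eGFP replicate 1 stood apart for Edg84A at 13.9 (others 14.1 to 14.2), for Lcp65Ac at 8.77 (others 9.35 to 9.42) and, upward, for TwdlT at 14.38 (others 14.32), and Ubx replicate 2 for Lcp65Ac at 8.38 (others 8.74 to 8.80). The other 4 were Lcp65Aa at 7.02 in larvae at 19 °C, Ubx replicate 2, TwdlT at 7.25 in larvae at 29 °C, Ubx replicate 2, Lcp65Ac at 3.25 in pupae at 29 °C, eGFP replicate 2, and TwdlE at 10.19 in pupae at 29 °C, eGFP replicate 4.

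The line difference changed with temperature for TwdlE in larvae (-0.93), Edg91 in prepupae (-0.84) and Edg78E in pupae (-1.12). In pupae at 19 °C Edg78E read near the bottom of the scale in both lines, so its contrast largely restates the difference at 29 °C. The Edg91 call was lost for 9 of 16 arrays left out, and those of TwdlE and Edg91 with the compared arrays alone. It changed from larva to prepupa at 29 °C for TwdlE (1.03), Twdlbeta (-0.87), Lcp65Ac (-0.63) and TwdlC (-0.55). It changed from prepupa to pupa at 29 °C for Edg78E (-0.94), Twdlbeta (1.03), Edg91 (1.01), TwdlC (0.74), Lcp65Ac (0.63), Lcp65Aa (0.57), Ccp84Ae (0.54), TwdlV (0.37) and TwdlH (0.22). All had an adjusted p under 0.05 with limma, and that of TwdlH was 0.0495. For Twdlbeta and Lcp65Ac the stage contrasts largely restate the prepupal difference, since both genes read low in larvae and pupae of both lines.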

How the results depend on the processing

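Among the 27 line differences and their changes with temperature or stage that were called, none changed sign, 143 alternative fits other than leaving out an array kept the call and 19 lost it. TwdlE in larvae, Edg91, Lcp65Ac, Twdlbeta and TwdlC in prepupae and Edg78E in pupae at 29 °C kept theirs throughout, arrays left out included. Fitting the compared arrays alone gave 0 members in larvae and 0 in prepupae at 19 °C and 0 for line by temperature in larvae; quantile normalisation gave 0 in prepupae at 19 °C; averaging the probe sets of a gene gave 1 in pupae at 29 °C. Replicate numbers do not pair the samples: 7 of 24 same-numbered pairs deviated together (r over 0.1) and 6 of 24 arrays correlated best with their own number. The replicate block gave 2 members in prepupae at 19 °C and 2 for line by temperature in prepupae. With 22 members left by the filter at the median mean, 3 were called for line by temperature in prepupae, 19 from larva to prepupa at 19 °C, 22 from prepupa to pupa at each temperature, and 11, 15 and 9 between temperatures in larvae, prepupae and pupae. Under quantile normalisation and centring, prepupa to pupa at 19 °C gave 24 and 25, and larvae at 29 °C against 19 °C gave 9 and 8. Centring gave 1 member at least 2-fold lower from larva to prepupa at 29 °C and quantile normalisation 1 between pupal temperatures, against 0 (the 2-fold limit was chosen after seeing the data). The cause of these changes was not tested, except that the filter tests fewer members. Leaving out 1 array, counts ran from 1 to 1, 5 to 8 and 1 to 3 in larvae, prepupae and pupae at 29 °C, 0 to 1, 0 to 2 and 0 to 1 at 19 °C, and 1 to 1, 0 to 3 and 1 to 2 for line by temperature. They ran from 29 to 32 and 31 to 33 from larva to prepupa, 36 to 38 and 38 to 39 from prepupa to pupa, 16 to 23, 21 to 25 and 13 to 16 between temperatures, and 4 to 6 and 6 to 11 for line by stage. Signal near the top of the scale and 4 arrays per group limit what can be seen.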

Other observations

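Within a prepupal group, the 11 genes that rise and fall at least 4-fold at 29 °C tended to have the same high or low array. Among eGFP prepupae at 19 °C, replicate 1 or 3 was highest for all 11 genes (5 and 6), and replicate 2 was lowest for 8. Among Ubx prepupae at 19 °C, replicate 3 was highest for 8 and replicate 4 lowest for 7. Among Ubx prepupae at 29 °C, replicate 2 was lowest for 10 of the 11. Among eGFP prepupae at 29 °C, replicate 1 was lowest for 7 and highest for the other 4. The mean deviation of these genes from the group mean ran from -0.21 to 0.16 over the prepupal arrays at 19 °C and from -0.19 to 0.09 at 29 °C. These values describe the arrays and carry no test.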
